A study of Caenorhabditis elegans with 3 samples.

Results

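The 5 genes described here govern lifespan and protein folding in Caenorhabditis elegans, namely age-1, eat-2, xbp-1, hsp-1 and dnj-19. They were taken by name from 2 annotated peak tables of trimethylated lysine 4 on histone H3 (H3K4me3), measured by chromatin immunoprecipitation and sequencing (ChIP-seq). All 5 were listed with a peak in the table of F14' nematodes and 1, age-1, was also listed in the table of F11 nematodes, out of 884 genes listed in either table. Of 19983 protein-coding genes, 0.325% were listed in F11 and 2.55% in F14'. The members were chosen by their listing in these tables, that is by the peak calls themselves, so nothing is read from their presence and no test of it is given.

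The groups were whole wild-type nematodes of 3 kinds, with 1 library each. F11 was the generation exposed to the sulfonamide antibiotic sulfamethoxazole (SMX) in K-medium on agar plates for 11 generations, 6 days in each. F14' came from that line, is labelled as generation 14 and as its first unexposed progeny, and was kept in K-medium without the drug. The control, for which no generation is given, was also kept in K-medium without the drug, and it has no peak table here. All 3 groups were fed Escherichia coli OP50 at 20 °C, and no SMX concentration is given in the sources used here. Whole animals mix all tissues, so fewer marked cells and less mark per cell cannot be told apart. With 1 library a group, no difference below has a replicate check and intervals cover counting error only.

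H3K4me3 is laid down by COMPASS-type methyltransferases and is usually found around the starts of actively transcribed genes. Insulin signalling in this worm runs from the receptor DAF-2 through the PI3-kinase AGE-1 to the kinases PDK-1 and AKT-1, which hold the transcription factor DAF-16 in the cytoplasm, and loss of age-1 lengthens life. Protein folding depends on Hsp70 chaperones and their DnaJ partners in the cytosol, and on the unfolded protein response in the endoplasmic reticulum.

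The tables held 95 peaks for F11 and 639 for F14', with a median of 314 tags (mapped reads) per kb of peak in F11 and 301 in F14'. The authors' deposited fold, a ratio over the background of the peak caller, had a median of 2.02 in F11 and 2.30 in F14'. The labels name the same control for each table. The F14' table carries no false discovery rate, and whether the control library was its background could not be settled, so folds, scores and computed backgrounds of the tables may rest on different backgrounds. The sources used here do not give the total depth of the libraries, and the depth behind a value is known only inside peaks.

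In the insulin pathway, age-1 was the member with a peak in both tables, although its F11 peak carried a deposited false discovery rate of 100%. It encodes the catalytic subunit of PI3-kinase and lies on the minus strand of chromosome II (build ce10), with its start at 11526990. The F11 peak spanned 11527550 to 11528670 and was 1121 bp wide, and the F14' peak spanned 11527518 to 11528641 and was 1124 bp wide. They overlapped by 1092 bp, which is 97.4% of the F11 peak and 97.2% of the F14' peak. Their summits lay 7 bp apart. Both were classed as promoter, with deposited distances to the start of -1120 bp in F11 and -1089 bp in F14', where a negative sign means upstream. Neither peak reached the start, since the near edge lay at -560 bp in F11 and at -528 bp in F14'. Y62F5A.10 is the next protein-coding gene on that side in RefSeq gene order (assembly WBcel235), and neither table lists it for this interval.

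The age-1 peak held 378 tags in F11 and 339 in F14'. Per kb of peak this was 337 tags in F11 (exact Poisson 95% interval 304 to 373) and 302 in F14' (270 to 335). The F11 density was 1.12 times that of F14', with an exact conditional 95% interval of 0.963 to 1.30 that includes equality. For scale, the same ratio had a median of 0.972 and a range of 0.495 to 1.30 over the 54 pairs of overlapping peaks, and 7 pairs lay above age-1. The unscaled tag density at age-1 was thus within counting error of equal. Library depth is unknown, so this does not compare the mark itself between the 2 libraries. Scaled to the median density of all peaks in each table, the ratio was 1.07 (0.926 to 1.25). Scaled to the median of the overlapping peaks, it was 1.15 (0.991 to 1.34).

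**Figure D1:**
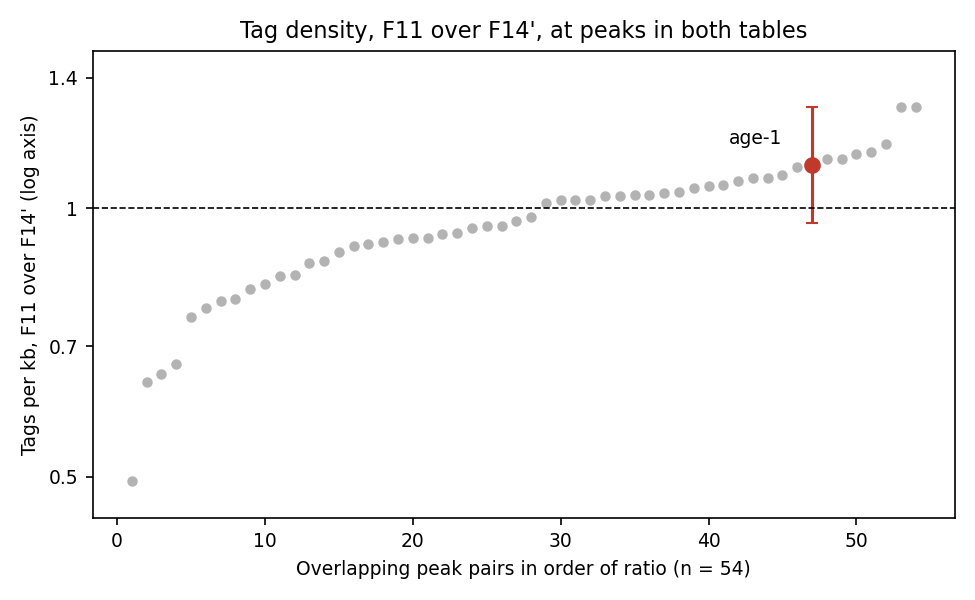
Ratio of tags per kb in F11 over F14' (log axis) for the 54 pairs of overlapping peaks, in order of the ratio. Grey points are pairs, the red point is age-1 (1.12) with its exact 95% counting interval of 0.963 to 1.30, and the dashed line marks equality.

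The deposited folds at age-1 were 3.53 in F11 and 2.68 in F14'. The deposited score, which is -10 times the base-10 logarithm of the peak's p, was 58.1 in F11 and 53.3 in F14'. A background can be computed back as the Poisson mean at which the tags have the deposited p. For F11 it came to 262 tags per kb and for F14' to 234, and the tags were 1.29 times that background in each table. This ratio is a different quantity from the deposited fold, which was 3.53 and 2.68 at the same peaks. Over the 54 overlapping pairs the deposited fold of F11 over that of F14' had a median of 0.806, and age-1, at 1.32, lay below 2 pairs and above 51. Within its own table age-1 ranked high by fold in F11, where 14 of 95 peaks were higher, and 212 of 639 were higher in F14'. The peak was among the narrowest, with 3 narrower peaks in F11 and 33 in F14'. Its false discovery rate in the authors' deposited table was 100% in F11, and the F14' table was used without one. The rates of the other F11 peaks are not given here, so how common such a value is cannot be told.

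The other lifespan gene, eat-2, was listed in F14' only. It encodes a nicotinic acetylcholine receptor subunit needed for fast pharyngeal pumping, and its loss reduces feeding and lengthens life. The gene lies on the minus strand of chromosome II with its start at 14171409, and the peak spanned 14169017 to 14171168. At 2152 bp this was the widest peak of the 5 genes. It was classed as promoter at a deposited distance of 1317 bp, but it lay wholly inside the transcribed span, from 241 to 2392 bp downstream of the start, and covered 46.8% of that span. Its summit was 732 bp downstream of the start.

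The eat-2 peak held 595 tags, the most of the 5 genes, yet only 276 tags per kb (255 to 300). In 86 of the 639 F14' peaks the tag density was lower. The fold was 2.21, the score 61.6 and the tags 1.23 times the computed background, each near the middle of the F14' table, where 40.5% of peaks had a lower fold. The closest F11 peak, at W07G1.1, was centred 231 kb away.

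**Figure D2:**
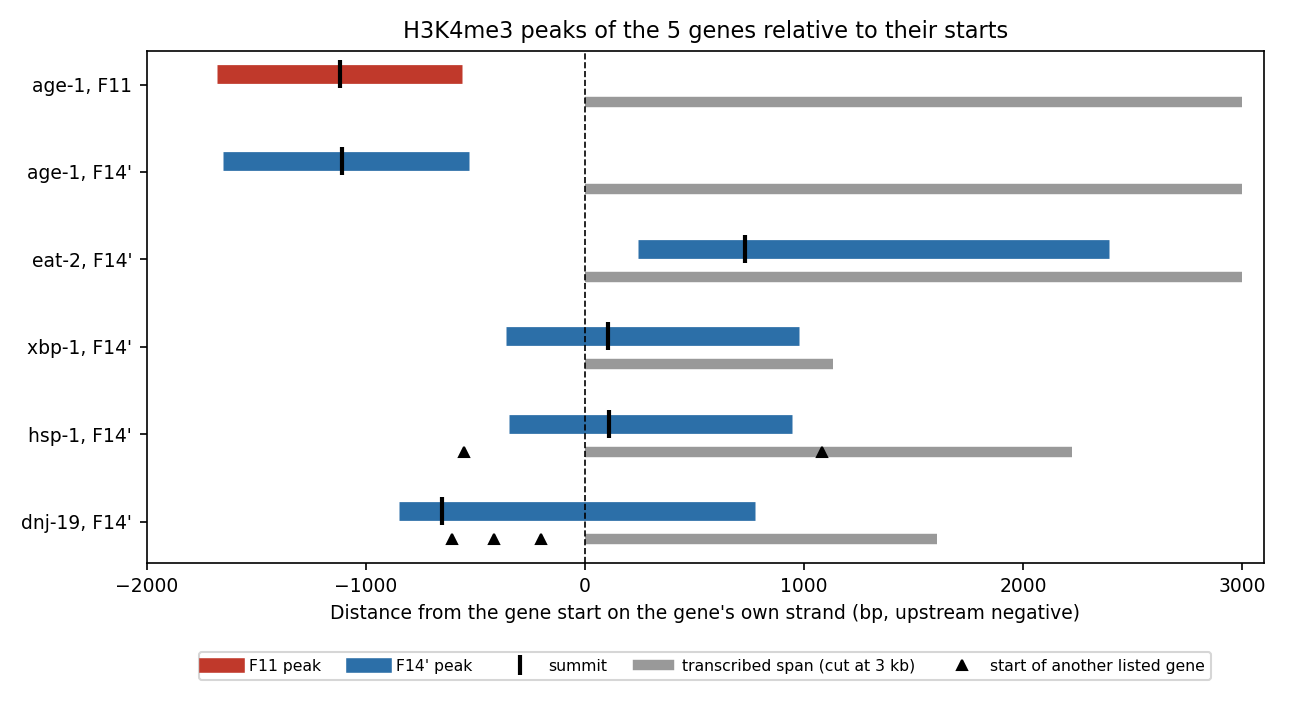
Peaks of the 5 genes placed by distance from the gene start on the gene's own strand (bp, upstream negative), with F11 in red and F14' in blue. Black ticks are summits, grey bars the transcribed span cut at 3 kb, and triangles the starts of other genes listed for the same peak. The age-1 peaks lie upstream, the eat-2 peak lies inside the gene, and the other 3 cover the start.

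In the unfolded protein response, xbp-1 had the highest tag density, score and fold of the 5 genes in F14'. Its density was within counting error of those at age-1 and hsp-1, and the fold at age-1 was nearly as high (2.68). The gene xbp-1 encodes a bZIP transcription factor whose messenger RNA is spliced by IRE-1 when unfolded proteins accumulate in the endoplasmic reticulum. The peak (chromosome III, 4193597 to 4194936, plus strand, 1340 bp) was classed as promoter and listed with 3 xbp-1 transcripts that share a start at 4193956. It reached from -359 to 980 bp relative to that start, covered 86.4% of the short gene and had its summit 108 bp downstream. It held 428 tags, or 319 per kb (290 to 351), which were 1.36 times the computed background. The fold was 2.70 and the score 91.6, a deposited p of 6.98e-10. Even so, 208 of the 639 F14' peaks had a higher fold and 250 a higher score. In F11 the closest peak, at gmeb-3, was centred 424 kb away.

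Of the cytosolic chaperones, hsp-1 encodes the constitutive Hsp70 (Hsc70) protein. Its F14' peak (chromosome IV, 17278580 to 17279871, plus strand, 1292 bp) was classed as promoter and was placed almost like that of xbp-1. It reached from -346 to 945 bp relative to the start at 17278926, with the summit 109 bp downstream. The part upstream of the start was 26.8% of the peak at both hsp-1 and xbp-1. The hsp-1 peak held 387 tags, or 300 per kb (270 to 331), near the median of 301 over all F14' peaks. The tags were 1.28 times the computed background and the score was 56.9, while the fold of 1.89 was low, with 68 of 639 peaks lower. The authors listed 2 noncoding RNA genes for the same peak, F26D10.23 and the small nucleolar RNA gene F26D10.24, whose starts lay outside it. The closest F11 peak, at the piRNA gene 21ur-11334, was centred 1119 kb away.

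**Figure D3:**
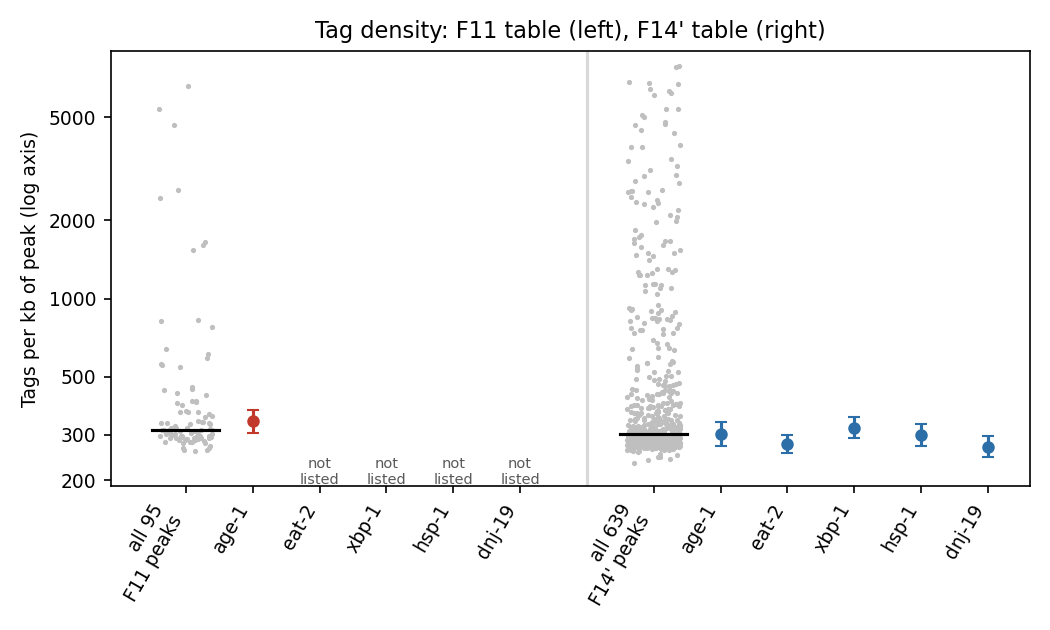
Tags per kb of peak (log axis) in the F11 table on the left and the F14' table on the right. Grey points are all peaks with their median as a black line, and coloured points are the 5 genes with exact Poisson 95% intervals. The points lie from 270 to 337 tags per kb and the intervals reach from 245 to 373.

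The DnaJ gene dnj-19 had the lowest tag density and score of the 5, with a density within counting error of those at eat-2, hsp-1 and age-1. DnaJ proteins stimulate the ATPase of Hsp70 and hand it unfolded clients. The F14' peak (chromosome V, 5504053 to 5505679, 1627 bp, promoter) was centred 37 bp upstream of the dnj-19 start at 5504829 on the minus strand. It held 439 tags, or 270 per kb (245 to 296), and 42 of the 639 F14' peaks were less dense. Its fold was 1.89, the same as at hsp-1, its score was 33.6 (a deposited p of 0.000435) and its tags were 1.18 times the computed background.

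The dnj-19 peak covered a divergent pair of genes. The nuclear hormone receptor gene nhr-47 starts 607 bp upstream of dnj-19 on the opposite strand, inside the same peak. The summit lay 652 bp upstream of the dnj-19 start and 45 bp downstream of the nhr-47 start. The noncoding RNA genes C24G6.10 and C24G6.12 also start inside the peak, 416 and 202 bp upstream of dnj-19. The peak centre was thus nearest to dnj-19 and the summit nearest to nhr-47, and the tags of these genes cannot be separated.

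An F11 peak lay near dnj-19 without reaching it. It was assigned to T05C3.2, the next protein-coding gene downstream of dnj-19 in RefSeq gene order, and was centred 9745 bp from the dnj-19 start. It held 488 tags at 296 per kb with a fold of 1.82, was classed as promoter, and overlapped no F14' peak. In F14' the closest other peak was centred 29.9 kb from dnj-19 and was assigned to ZC317.1. Among the 5 genes, dnj-19 was the one with another peak within 10 kb in either table.

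Set side by side in F14', the tag densities ran from 319 per kb at xbp-1 through 302 at age-1, 300 at hsp-1 and 276 at eat-2 to 270 at dnj-19. No neighbouring pair in this order differed beyond counting error. Of the 10 pairs, 2 had intervals above equality, with no adjustment for the number of pairs. These were xbp-1 over eat-2 (ratio 1.16, 1.02 to 1.31) and xbp-1 over dnj-19 (1.18, 1.03 to 1.36). The median over the 5 genes was 300 tags per kb, against 301 over all F14' peaks. Their median width was 1340 bp, against 1788 bp over all peaks, and their median fold was 2.21, against 2.30. All 5 scores were under 100, as were 62.6% of all F14' scores, and no fold reached 5, as 15.2% of F14' folds did.

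**Figure D4:**
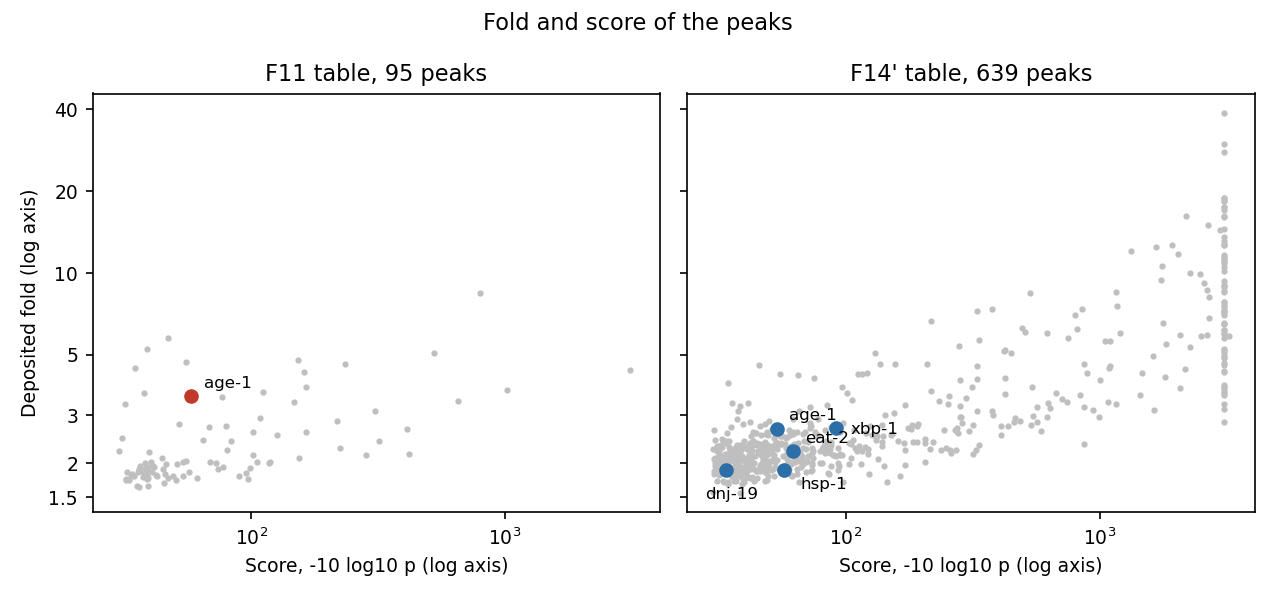
Deposited fold against score (-10 log10 p), both on log axes, for all peaks of the F11 table (left) and the F14' table (right). Grey points are all peaks and coloured points the 5 genes, whose scores run from 33.6 to 91.6 and whose folds run from 1.89 to 3.53. In F11, 14 of 95 peaks have a higher fold than age-1, and in F14' all 5 scores are under 100.

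All 5 genes were classed as promoter, but their peaks stood differently to the start. Each of the 5 was placed by its own start, whereas the counts over all promoter peaks use the first gene listed for each peak. Those of xbp-1, hsp-1 and dnj-19 covered it, as 197 of 384 F14' promoter peaks did (51.3%, exact 95% interval 46.2 to 56.4%). The age-1 peak lay wholly upstream, as 68 of 384 did (17.7%), and the eat-2 peak wholly downstream, as 119 of 384 did (31.0%). In F11 the age-1 peak was 1 of 12 wholly upstream among 40 promoter peaks.

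The 4 genes without an F11 peak had no listed tags there, and their F11 tag density is therefore unknown. The least dense F11 peak had 260 tags per kb, below the F14' density of each of these genes. There were 52 F11 peaks less dense than the F14' peak of xbp-1, 31 less dense than that of hsp-1, 6 less dense than that of eat-2 and 5 less dense than that of dnj-19. These densities are not scaled for library depth, which is unknown. The computed background also differed, with a median of 251 tags per kb over F11 peaks and 235 over F14' peaks. The counts therefore do not tell whether these genes could have been called in F11. Listing in F14' and not in F11 is not a measured loss or gain of the mark, and the difference between the libraries was not tested. No gene of the 5 was listed in F11 only.

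Other genes of the same pathways were counted in lists. Of 70 insulin and lifespan genes, 1 had a peak in F11 (age-1) and 4 in F14' (5.71%, 1.58 to 13.99%), against 0.325% and 2.55% of protein-coding genes. The 4 were ftt-2, lgg-1 and the members age-1 and eat-2, which were chosen by their listing in these tables. The shares are not independent of that choice, so nothing is read from their difference to those of all protein-coding genes. The 14-3-3 gene ftt-2, whose protein binds DAF-16, had 296 tags per kb, a fold of 2.19 and a score of 82.8 in F14', and its summit lay 5 bp from its start. The autophagy gene lgg-1, which encodes an Atg8 protein, had 307 tags per kb, a fold of 2.27 and a score of 81.3. The ftt-2 peak is also listed for F52D10.11 and F52D10.12, and the lgg-1 peak for H06I04.12 and H06I04.13. Of 9 core insulin signalling genes (daf-2, age-1, aap-1, pdk-1, akt-1, akt-2, sgk-1, daf-18 and daf-16), 1 was listed in each table (age-1). Of 13 insulin-like peptide genes, 0 were listed in either table.

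Of 90 proteostasis genes, 0 had a peak in F11 and 4 in F14' (4.44%, 1.22 to 11.0%), against 0.325% and 2.55% of protein-coding genes. Beside xbp-1, hsp-1 and dnj-19 these included crt-1, which encodes the endoplasmic reticulum chaperone calreticulin. Its promoter peak covered the start and had 266 tags per kb, a fold of 1.93 and a score of 34.0, values close to those of dnj-19. The same peak is listed for Y38A10A.8 and Y38A10A.10. In F14', 1 of 29 DnaJ genes (dnj-19), 1 of 22 heat shock protein genes (hsp-1) and 1 of the 5 unfolded protein response genes ire-1, xbp-1, pek-1, atf-4 and atf-6 (xbp-1) were listed. Nothing is read from these counts of 1, beside the 2.55% of all protein-coding genes. The members are part of these lists, so the counts describe the tables and do not show that either pathway stands apart.

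The 3 peaks nearest to each gene in tag density were taken over all peaks of the same table. In F14' those closest to age-1 were at fbxb-16, C50H11.8 and lgc-35, all at 301 to 302 tags per kb. In F11 the closest were cutl-26 (336), gmeb-3 (334) and Y39E4B.13 (333). The closest to xbp-1 were C30E1.9 and oac-19 (both 320) and Y71A12B.27 (318). For hsp-1 they were Y47H10A.5, F07G6.3 and T06D8.15, all within 1 tag per kb of it. For eat-2 they were linc-2, F52E4.10 and W09H1.1, and for dnj-19 they were fbxa-218, pll-1 and srz-37.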

How the data were processed

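H3K4me3 ChIP-seq was measured in 3 libraries of whole nematodes, of which F11 and F14' have an annotated peak table. Worms were fixed for 30 min in 2% formaldehyde and sheared to 200 to 800 bp, per the labels' protocols. MACS 1.4.0rc2, Bowtie2 2.1.0 and the build ce10 appear in the submitters' processing notes, without settings. Per the file headers, the authors deposited for each peak a count of tags without normalization, a fold (ratio) over background, a score of -10 log10 p, and, in F11, a false discovery rate in percent.

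The 103 F11 and 1025 F14' rows were collapsed to unique intervals. Tags per kb are tags over peak width, and a summit is the peak start plus the deposited offset. Deposited distances equal that from the peak centre within 0.5 bp. Genes were matched by RefSeq identifier or symbol to RefSeq (WBcel235), used for names and order only. Of 923 F14' identifiers 761 matched directly, and 81 of 100 in F11. The list symbols daf-21, atf-5 and dnj-6 did not match and were left out. Intervals are exact Poisson, conditional binomial or Clopper-Pearson at 95%. No test was run, since each group has 1 library. The interval and background code was tested on simulated data. The members and lists were chosen with earlier results of these data known. Genes named are the members, genes sharing their peaks, list members with a peak and the 3 peaks nearest in tag density, plus the nearest peaks and neighbouring genes, which were chosen after their values were seen. Alternatives were stricter scores, folds, distances and FDR, and other scalings of age-1. Intervals used scipy 1.17.1, tables pandas 2.3.3 with numpy 2.4.6, and plots matplotlib 3.10.9, all under Python 3.11.15.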

Additional observations from a re-analysis of the deposited data

How the results depend on the processing

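Of 40 alternative values, 26 stayed within 1.5 times of the count or inside the interval given above and 14 moved, each to a lower count because the limits leave fewer peaks. Some of the 26 could not have moved. A count of 0 proteostasis genes in F11 can only stay at 0 under a limit. Keeping the promoter class only changes nothing, since all the counted peaks were of that class. The 26 are therefore not a measure of stability. At a score of at least 100, 0 of the 5 genes kept a peak in F11 or F14', and so did 0 insulin and lifespan and 0 proteostasis genes. That limit kept 28.4% of all F11 peaks and 37.4% of all F14' peaks. At a score of at least 50, F14' kept 4 of the 5 genes (without dnj-19) and 2 proteostasis genes. Of all F14' peaks, 38.5% had a score under 50. At a fold of at least 2, F14' kept 3 genes (age-1, eat-2 and xbp-1) and 1 proteostasis gene, while 78.4% of all F14' peaks passed. With the peak centre within 1 kb of the start, F14' kept 3 genes (xbp-1, hsp-1 and dnj-19) and 2 insulin and lifespan genes, and F11 kept 0 of each. At an FDR of at most 5%, F11 kept 0 genes. The shares of all peaks that pass the distance and FDR limits are not given here. The ratio of age-1 ran from 1.07 to 1.15 over 4 other scalings, inside its interval. Tags per peak and tags over the union of both intervals gave the same 1.12, as they must. No scaling used the total depth of the libraries, which is unknown. Counting only the gene with the listed start nearest to the peak centre, added after seeing the data, kept 1 gene in F11 and 5 in F14'. Measured from the summit, dnj-19 would not be kept. That summit lay 652 bp from the dnj-19 start and 45 bp from the nhr-47 start. No paired analysis was possible because each group has 1 library.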
